A study of Mus musculus with 18 samples.

Results

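The integrin chains described here were 10 genes, the α chains *Itgae*, *Itga2b*, *Itga4*, *Itga6*, *Itgal* and *Itgav* and the β chains *Itgb1*, *Itgb2*, *Itgb5* and *Itgb7*, taken with every probe set annotated to one of them alone. They had 23 of the 22626 probe sets of the mouse array, on which 12393 genes had a probe set of their own. Probe sets per gene numbered 6 for *Itgb1*, 4 for *Itgb5*, 3 each for *Itga4* and *Itgav*, 2 for *Itga6* and 1 for each of the others. Messenger RNA was measured in sorted fetal and adult T cell progenitors at 3 successive stages, ETP, DN2 and DN3, by 18 arrays, 3 to a group. ETP were sorted as lineage negative CD44+ CD25- cells that carry c-kit, DN2 as CD44+ CD25+ cells and DN3 as CD25+ cells with little or no CD44. All mice were C57BL/6, the fetal thymi being labelled E14.5 (the study's methods give a later embryonic day) and the adults being females of 4 to 6 weeks. Sex of the fetuses was not given. The comparisons ask how the fetal cells of a stage differ from adult cells of that stage, and how the chains change along the stages within an age.

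Each array held RNA of 80000 cells per sample, pooled from 2 fetal or 4 adult sorts. The labels call the 3 arrays of a group biological replicates and the study's methods call them technical, and a p-value below is set against differences among arrays that could be technical only. Values are log2 expression centred by the authors on the median of each probe set over the 18 arrays. A value of 0 is therefore that probe set's median array, 1 unit is 2-fold, and levels cannot be compared between probe sets or genes. Each difference is given with its SE from limma, and a probe set was called when the adjusted p over all probe sets was under 0.05 and the difference at least 1.8-fold. In RNA of whole sorted populations, fewer cells that carry a transcript and less transcript per cell cannot be told apart. The chains were chosen with results of these arrays known, and 5 of them (*Itgae*, *Itga2b*, *Itga6*, *Itgb2* and *Itgb5*) are genes that the study itself names from these arrays, so that the direction of these 5 is not independent evidence.

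The stages went with their markers, apart from 1 array. The mean of 7 progenitor markers such as *Kit* and *Flt3* was 2.73 to 3.17 log2 in fetal ETP and -4.12 to -3.56 log2 in fetal DN3. In adult cells it was 4.04 to 4.55 log2 in ETP and -4.18, -4.07 and -0.46 log2 in DN3, so that adult DN3 replicate 3 stood apart. Erythroid markers were at 0.02 to 0.06 log2 in the 3 fetal replicates numbered 1 and at 0.69 to 1.78 log2 in the other fetal arrays. Where leaving out adult DN3 replicate 3 changed a call of a chain named below or moved a called fold by more than 1.5 times, the value without it is given or lies in a range given. The lineage depletion before the sort used an antibody against CD11b among others.

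Integrins are heterodimers of an α and a β chain that bind cells to extracellular matrix and to ligands on other cells, and each chain must find its partner to reach the surface. The pair of αE (CD103, *Itgae*) and β7 binds E-cadherin and is known from lymphocytes lodged in epithelia. The α4 chain pairs with β1 to bind VCAM-1 and fibronectin, or with β7 to bind MAdCAM-1, and α6 pairs with β1 or β4 to bind laminins. The αL chain with β2 forms LFA-1, a receptor for ICAMs, while αv with β5 binds vitronectin and αIIb (CD41, *Itga2b*) with β3 is the fibrinogen receptor of platelets. T cell progenitors entering the thymus and moving through it are known to use such contacts with endothelium, matrix and epithelium.

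Of the 23 probe sets, 9 changed over the 6 groups (limma moderated F test), where 16.8% of all probe sets did so. These 9 came from 8 genes, all but *Itgal* and *Itgb1*. The widest ranges over the 18 arrays were those of *Itgb7* (8.41 log2) and *Itgae* (7.44 log2), against a median of 1.12 log2 over all probe sets. A range of at least 1 log2 was found for 16 of the 23, and for 53.1% of all probe sets. At the other end 3 of the 23, and 24.5% of all probe sets, ranged over less than 0.2 log2, one each for *Itgav*, *Itgb1* and *Itgb5*. The map of group means shows *Itgae* with a high point in fetal DN3, and lower values of *Itgb7*, *Itga2b* and *Itgav* in adult DN3 than in adult ETP.

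**Figure D1:**
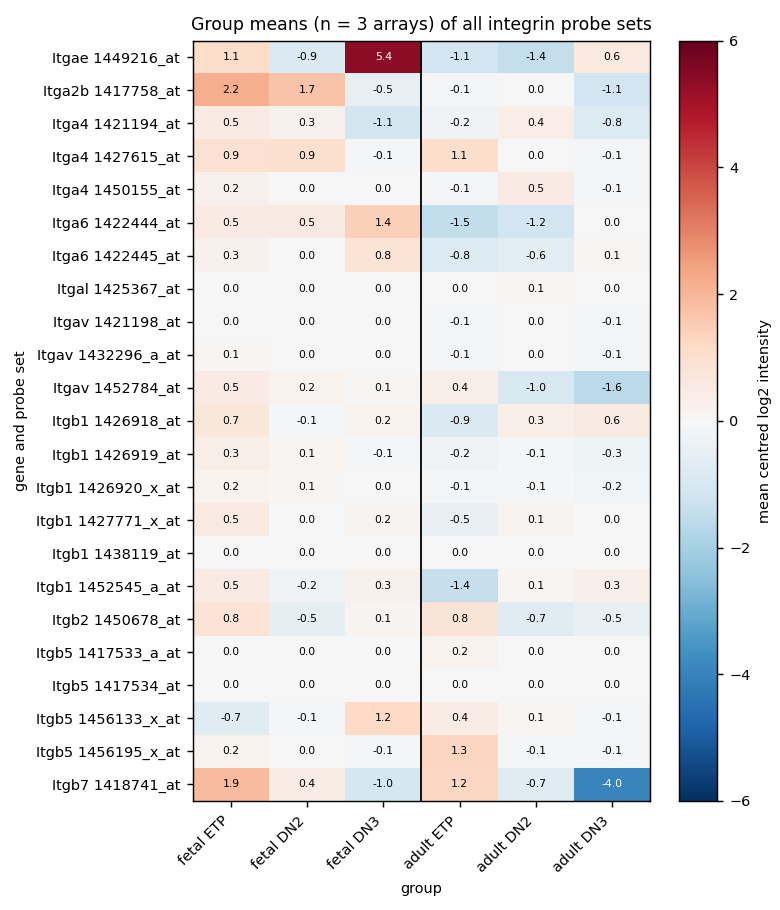
Mean log2 value (centred on each probe set's median over 18 arrays, n = 3 arrays per cell of the map) of all 23 integrin probe sets, one per line, in the 6 groups. The highest mean is that of *Itgae* in fetal DN3 (5.37 log2) and the lowest that of *Itgb7* in adult DN3 (-3.97 log2).

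*Itgae*, the αE chain, had by far its highest values in fetal DN3 cells. Over the stages the fetal arrays were at 1.42, 1.28 and 0.57 log2 in ETP, at 0.04, -1.71 and -0.93 log2 in DN2 and at 5.72, 5.18 and 5.19 log2 in DN3. The adult arrays were at -1.49, -0.98 and -0.98 log2 in ETP, at -1.16, -1.52 and -1.56 log2 in DN2 and at 0.69, 1.13 and -0.04 log2 in DN3. All 3 fetal DN3 arrays thus lay above every other array by several log2 units, and fetal ETP lay above adult ETP without overlap.

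In fetal DN3 *Itgae* exceeded adult DN3 by 4.77 ± 0.40 log2 (SE), or 27.3-fold, with an adjusted p of 6.27e-06 (limma). Within fetal cells DN3 exceeded DN2 by 6.24 ± 0.40 log2 (75.4-fold, adjusted p = 8.22e-07) and ETP by 4.28 ± 0.40 log2 (adjusted p = 1.28e-05). Fetal ETP exceeded adult ETP by 2.24 ± 0.40 log2 (4.72-fold, adjusted p = 0.00292), whereas at DN2 the difference of 0.55 ± 0.40 log2 was not called (adjusted p = 0.61). The fetal excess was larger at DN3 than at ETP by 2.53 ± 0.57 log2 (adjusted p = 0.0321). That last call was lost on leaving out any 1 of 9 arrays (any fetal DN3 array, replicates 2 and 3 of both fetal and adult ETP, replicates 1 and 3 of adult DN3), the difference then being one of 2.22 to 2.63 log2 and adjusted p of 0.0519 to 0.0895.

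Between fetal ETP and DN2 it fell by 1.96 ± 0.40 log2 (adjusted p = 0.0334), a call that any 1 of 7 arrays could end (fetal ETP replicate 1 or 2, fetal DN2 replicate 2 or 3, fetal DN3 replicate 2 or 3, adult DN2 replicate 2, adjusted p = 0.0502 to 0.174). In adult cells it rose, DN3 exceeding ETP by 1.75 ± 0.40 log2 (adjusted p = 0.0104) and DN2 by 2.01 ± 0.40 log2 (adjusted p = 0.0326). Without adult DN3 replicate 2 the rise over ETP was 1.48 log2 with an adjusted p of 0.0564. The rise over adult DN2 was lost without any 1 of 8 arrays (adult DN2 replicate 2 or 3, adult DN3 replicate 1 or 2, fetal ETP replicate 2, fetal DN2 replicate 3, fetal DN3 replicate 2 or 3, adjusted p = 0.0509 to 0.168).

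Markers of other cells that can carry αE or its ligand were read beside these values. The 10 measured of 11 thymic epithelial markers averaged 0.36 to 0.72 log2 in fetal DN3 and 0.09 to 0.45 log2 in adult DN3, and 1 of them, *Krt18*, was called higher in fetal DN3 (1.93 ± 0.41 log2), as it was in fetal ETP and DN2, while *Epcam* was called higher in fetal ETP. *Foxn1*, which defines thymic epithelium, had group means of -0.04 to 0.03 log2. The 4 measured of 10 γδ T cell markers averaged 0.03 to 0.24 log2 in fetal DN3 and -0.05 to 0.00 log2 in adult DN3, with 0 called by limma and 0 at an unadjusted p under 0.05 and the same fold. From fetal ETP to fetal DN3 1 of the 4, *Blk*, was called as rising (0.91 ± 0.20 log2, adjusted p = 0.0137, limma). The median difference of the 4 was then 0.07 log2. For NK and innate lymphoid markers (10 of 12 measured) the means were 0.01 to 0.12 log2 in fetal DN3 and -0.60 to -0.37 log2 in adult DN3, with *Gzmb* called. At ETP the same list averaged 1.07 to 1.36 log2 in fetal and -0.72 to -0.07 log2 in adult cells, with *Gzma* and *Gzmb* called. These 2 differed by 9.15 ± 0.69 and 5.76 ± 0.57 log2, whereas the median difference of the 10 was 0.21 log2. These marker genes were singled out after their values were seen. The part of these lists in the *Itgae* difference was not tested. 

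*Cdh1*, which encodes the αEβ7 ligand E-cadherin, rose from ETP to DN3 at both ages. Its fetal arrays were at -1.10, -0.96 and -0.77 log2 in ETP, 1.55, 0.01 and 0.52 log2 in DN2 and 3.37, 2.92 and 3.27 log2 in DN3. The adult arrays were at -2.83, -3.79 and -2.11 log2 in ETP, -1.29, -0.01 and -1.18 log2 in DN2 and 1.43, 1.67 and 0.72 log2 in DN3. It exceeded adult cells by 1.97 ± 0.47 log2 at fetal ETP (adjusted p = 0.0168) and by 1.92 ± 0.47 log2 at fetal DN3 (adjusted p = 0.045, limma), and DN3 exceeded ETP by 4.13 ± 0.47 log2 in the fetus (adjusted p = 7.17e-05) and by 4.18 ± 0.47 log2 in the adult (adjusted p = 5.23e-05). The call at fetal ETP was lost on leaving out any 1 of 3 arrays (adult ETP replicate 2, fetal ETP replicate 2 or 3, adjusted p = 0.0514 to 0.0702) and that at fetal DN3 on leaving out any 1 of 12 (0.0539 to 0.165, and 1.64 log2 without adult DN3 replicate 3), while both rises kept their call whichever array was left out. Among the epithelial markers *Epcam* rose beside it, from ETP to DN3 by 6.32 ± 0.60 log2 in the fetus (adjusted p = 1.49e-05) and by 7.71 ± 0.60 log2 in the adult (adjusted p = 1.97e-06). No other of the 10 measured epithelial markers was called for this difference at either age. The median difference of the list was -0.04 log2 in the fetus and 0.01 log2 in the adult. At fetal ETP *Epcam* was higher than in adult ETP by 2.01 ± 0.60 log2 (adjusted p = 0.0496) and *Krt18* by 2.38 ± 0.41 log2 (adjusted p = 0.00227). The part of these markers in the *Cdh1* values was not tested.

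**Figure D2:**
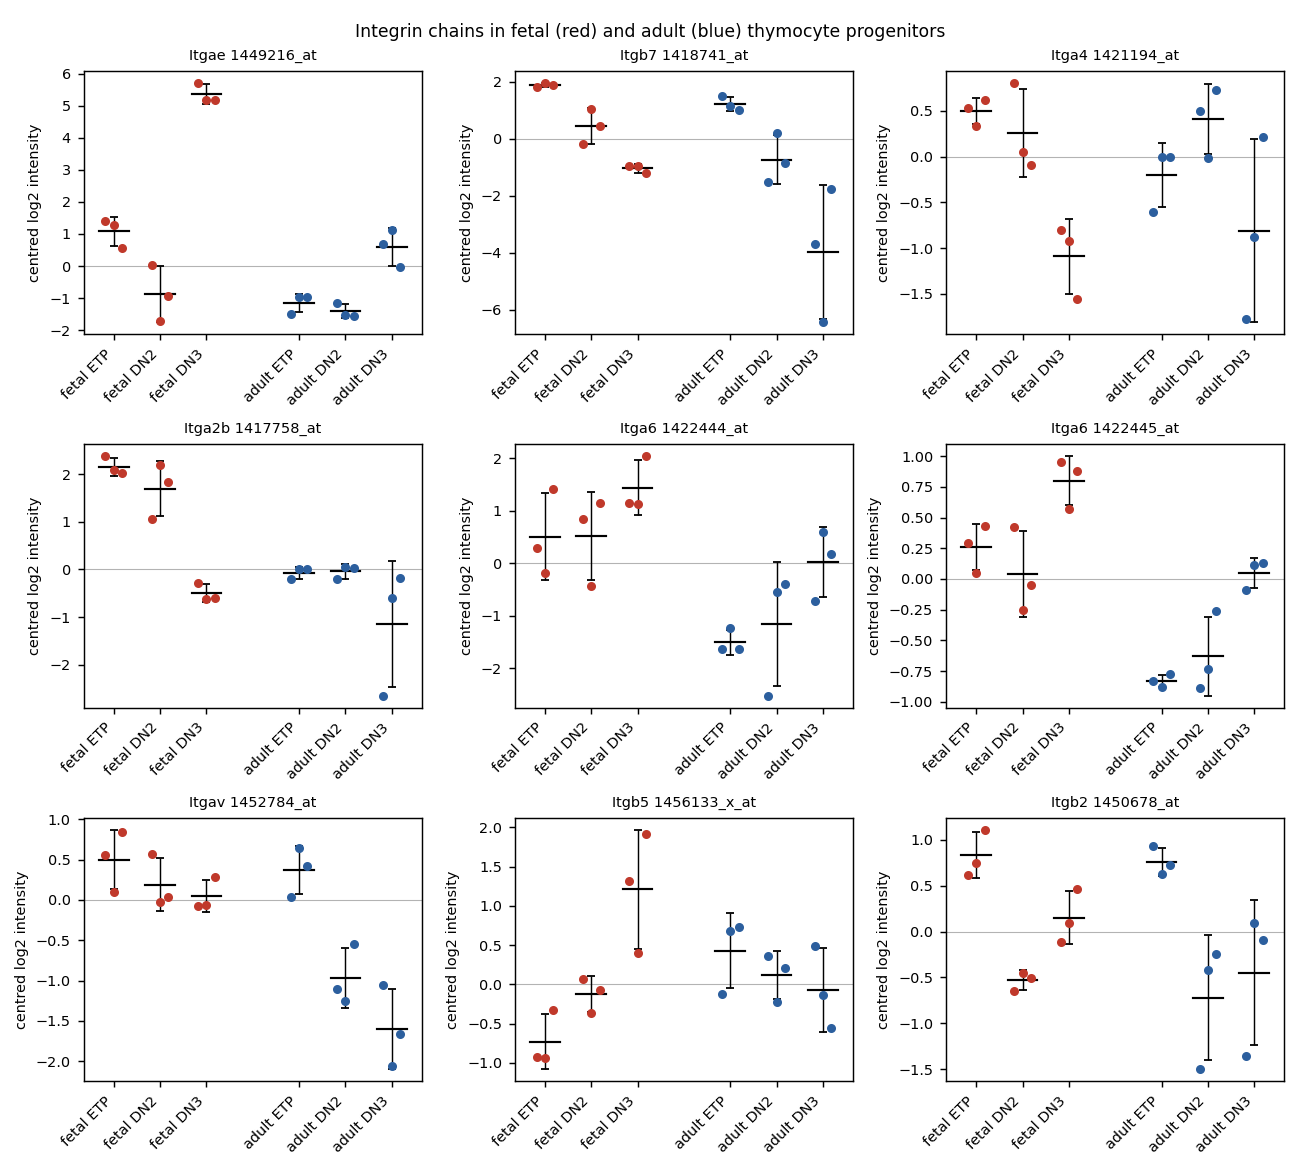
Centred log2 value on each array (points) by group, with the mean (bar) and SD (error bar, n = 3) for the 9 integrin probe sets that changed over the 6 groups, fetal groups in red before adult groups in blue. *Itgae* stands at 5.18 to 5.72 log2 in fetal DN3 and at -0.04 to 1.13 log2 in adult DN3, while *Itgb7* is lowest at DN3 at both ages (-1.22 to -0.95 log2 in fetal and -6.44 to -1.77 log2 in adult DN3).

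*Itgb7*, the β chain with which αE must pair, ran the other way, downwards from ETP to DN3. In the fetus it was at 1.81, 1.97 and 1.90 log2 in ETP, at -0.19, 1.06 and 0.44 log2 in DN2 and at -0.96, -0.95 and -1.22 log2 in DN3, the 3 stages not overlapping. In the adult it was at 1.49, 1.16 and 1.01 log2 in ETP, at -1.53, 0.19 and -0.85 log2 in DN2 and at -3.70, -6.44 and -1.77 log2 in DN3, again without overlap between stages. The adult DN3 arrays were the 3 lowest of the 18 and the furthest from each other (SD 2.35 log2, against 0.15 log2 in fetal DN3).

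From adult ETP to adult DN3 *Itgb7* fell by 5.19 ± 0.83 log2 (36.5-fold, adjusted p = 0.000895, limma). The size of this fall moved with single arrays, being 78.4-fold (-6.29 log2) without adult DN3 replicate 3 and 15.5-fold (-3.95 log2) without replicate 2. It was called also in the fit with replicate block (adjusted p = 0.00217), but not when only the arrays of these 2 groups were fitted (adjusted p = 0.0943). Fetal DN3 differed from fetal ETP by -2.93 ± 0.83 log2, short of the call (adjusted p = 0.0572) in a fit that pools the spread of all 6 groups. Fitted on the fetal ETP and DN3 arrays alone, the same difference had an adjusted p of 0.000131, and without adult DN3 replicate 2 or 3 it had 0.00252 or 0.00805. At DN3 the fetal arrays lay above the adult ones by 2.93 ± 0.83 log2 (adjusted p = 0.0978), and without adult DN3 replicate 3, the array with raised progenitor markers, by 4.03 log2 (adjusted p = 0.00345). Adult DN3 differed from adult DN2 by -3.24 ± 0.83 log2 with all arrays (adjusted p = 0.0863) and by -4.35 log2 without that array (adjusted p = 0.00257). Without adult DN3 replicate 2 the difference of adult DN2 from adult ETP, -1.95 ± 0.83 log2, was called as well (adjusted p = 0.033, otherwise 0.222). Fetal against adult differences at ETP (0.67 ± 0.83 log2) and DN2 (1.17 ± 0.83 log2) were not called.

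Because both chains are needed for one receptor, they were set side by side on each array. The value of *Itgae* less that of *Itgb7* averaged -0.80 ± 0.48, -1.31 ± 1.50 and 6.41 ± 0.28 log2 in fetal ETP, DN2 and DN3 (SD, n = 3 each), and -2.37 ± 0.53, -0.69 ± 1.04 and 4.57 ± 2.93 log2 in the adult stages. Since each chain is centred on its own median, these numbers show the shift of one against the other and not their ratio. Over the 18 arrays the correlation of the 2 was r = -0.23.

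**Figure D3:**
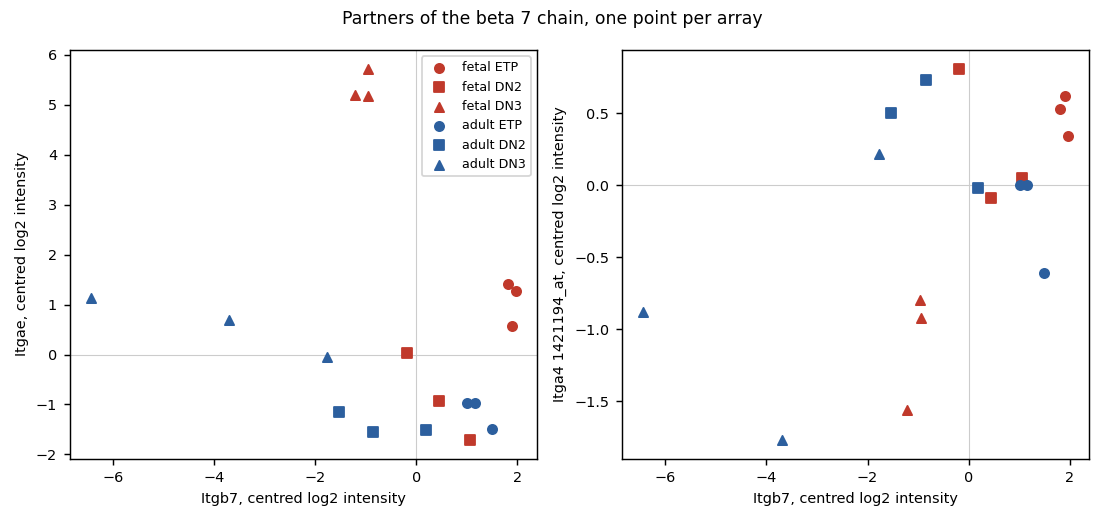
Centred log2 values of *Itgae* and of *Itga4* (probe set 1421194_at) on each of the 18 arrays against that of *Itgb7* on the same array, by group. The fetal DN3 arrays combine *Itgae* at 5.18 to 5.72 log2 with *Itgb7* at -1.22 to -0.95 log2, and *Itga4* lies at -1.56 to -0.80 log2 on the same arrays.

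*Itga4*, the other α chain that pairs with β7, had 3 probe sets that differed from each other. The probe set 1421194_at was at 0.53, 0.34 and 0.62 log2 in fetal ETP, 0.81, 0.05 and -0.09 log2 in fetal DN2 and -0.80, -0.92 and -1.56 log2 in fetal DN3. In adult cells it was at -0.61, 0.00 and 0.00 log2 in ETP, 0.50, -0.02 and 0.73 log2 in DN2 and -1.77, -0.88 and 0.22 log2 in DN3. Fetal DN3 lay below fetal ETP and DN2 without overlap, and the adult stages overlapped. It fell by 1.59 ± 0.42 log2 from fetal ETP to fetal DN3 (adjusted p = 0.0376, limma). In the blocked fit, with replicate number as a term, the adjusted p was 0.0562, and leaving out any 1 of 8 arrays (any fetal ETP or fetal DN3 array, fetal DN2 replicate 2, adult DN3 replicate 2) gave 0.0512 to 0.141. Without adult DN3 replicate 3, DN3 differed from DN2 by -1.35 log2 in the fetus (adjusted p = 0.038) and by -1.73 log2 in the adult (0.0199), neither of which was called with all arrays.

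The most variable *Itga4* probe set, 1427615_at, had isolated high arrays, 1 of 3 in fetal ETP and in fetal DN2 and 2 of 3 in adult ETP. It was at 2.44, 0.19 and 0.12 log2 in fetal ETP, 2.86, 0.03 and -0.06 log2 in fetal DN2 and -0.07, 2.06 and 1.22 log2 in adult ETP, and within -0.20 to 0.04 log2 in the other groups. The remaining one, 1450155_at, was near 0 but for 1.43 log2 in adult DN2 replicate 1. Neither was called in any comparison.

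*Itga2b*, which encodes αIIb and is known from platelets and from the early blood progenitors of the embryo, was highest in fetal ETP. The fetal arrays were at 2.38, 2.08 and 2.03 log2 in ETP, 1.06, 2.20 and 1.84 log2 in DN2 and -0.28, -0.61 and -0.59 log2 in DN3. Adult arrays were at -0.20, 0.00 and 0.00 log2 in ETP, -0.21, 0.05 and 0.03 log2 in DN2 and -2.65, -0.60 and -0.18 log2 in DN3. Every fetal ETP and DN2 array was thus above every adult array, and the DN3 arrays of both ages overlapped.

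Fetal ETP exceeded adult ETP by 2.23 ± 0.48 log2 (4.69-fold, adjusted p = 0.00857, limma). Within the fetus *Itga2b* fell by 2.66 ± 0.48 log2 from ETP to DN3 (6.30-fold, adjusted p = 0.00305). Its fall of 2.19 ± 0.48 log2 from fetal DN2 to fetal DN3 (adjusted p = 0.0241) was lost without fetal DN2 replicate 2 or 3 or any fetal DN3 array (adjusted p = 0.0683 to 0.137). At DN2 the fetal excess of 1.74 ± 0.48 log2 was not called (adjusted p = 0.0619). It was called without adult DN3 replicate 1 (adjusted p = 0.00104), the array at -2.65 log2, and without adult DN3 replicate 3 (0.0344) or fetal DN2 replicate 1 (0.0474, 2.06 log2). Adult DN3 differed from adult ETP by -1.08 ± 0.48 log2 (adjusted p = 0.192, and -1.56 log2 with 0.0489 without adult DN3 replicate 3). The change of the fetal excess between ETP and DN3 was -1.58 ± 0.67 log2 (adjusted p = 0.337), and -2.33 log2 (0.00342) without adult DN3 replicate 1.

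*Itgb3*, the platelet partner of αIIb, ranged over only 0.12 log2. The 8 measured of 11 megakaryocyte and platelet markers, among them *Pf4*, *Gp9* and *Itgb3* itself, averaged 0.01 to 0.05 log2 in fetal ETP and -0.05 to 0.01 log2 in adult ETP. Of these 0 were called by limma and 0 at an unadjusted p under 0.05 and the same fold. Endothelial markers averaged 0.86 to 0.92 log2 in fetal ETP and -0.06 to 0.19 log2 in adult ETP, with 1 of the 7 called, *Esam*, which averaged 6.01 log2 in fetal ETP and 0.85 log2 in adult ETP. The list was not raised as a whole, its median difference being 0.09 log2 and that of all probe sets 0.07 log2. Mast cell markers (8 measured) averaged 1.14, 2.18 and 0.51 log2 in fetal ETP and 0.08, 0.08 and 0.67 log2 in adult ETP, with 0 called and 2 higher at the unadjusted p, and their part in the *Itga2b* difference was not tested.

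*Itga2b* and *Itgb7* moved together over the arrays (r = 0.69 over the 18 arrays, the second highest of the 45 pairs of integrin genes), both being highest in fetal ETP and lowest in adult DN3. *Itgav* correlated more closely with *Itgb7* (r = 0.78), and its promoter was searched but is not shown. The promoter windows of *Itga2b* and *Itgb7* are shown, from 250 bases before to 50 after an annotated start (RefSeq, GRCm38.p6), read 5′ to 3′ on the strand of the gene. For *Itga2b* that start is the outer end of the gene. The *Itgb7* window lies around a start 1470 bases inside the annotated gene, and what lies before the outer end was not examined. Capitals mark matches to GAGGAA, a form of site for Ets factors (TTCCTC where it lies on the other strand), and to CAGCTG, an E-box. Other forms of Ets site were not searched.
Itga2b, chr11:102469834-102470133, minus strand: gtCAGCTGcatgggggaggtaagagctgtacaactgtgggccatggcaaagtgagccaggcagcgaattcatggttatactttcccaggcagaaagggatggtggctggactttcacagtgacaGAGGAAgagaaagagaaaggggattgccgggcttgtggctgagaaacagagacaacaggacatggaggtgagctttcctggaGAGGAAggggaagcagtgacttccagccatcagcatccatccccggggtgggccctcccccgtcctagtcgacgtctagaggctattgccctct
Itgb7, chr15:102231886-102232185, minus strand: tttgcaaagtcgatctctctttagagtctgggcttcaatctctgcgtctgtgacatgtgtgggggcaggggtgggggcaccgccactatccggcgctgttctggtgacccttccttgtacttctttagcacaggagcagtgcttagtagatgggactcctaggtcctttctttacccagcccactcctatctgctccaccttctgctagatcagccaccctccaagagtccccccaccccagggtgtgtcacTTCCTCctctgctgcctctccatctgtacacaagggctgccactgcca
The *Itga2b* window held GAGGAA at -126 and -44 and CAGCTG at -248 from the start, and that of *Itgb7* held GAGGAA on the other strand at +3 from the inner start. GAGGAA occurs on either strand in 28.3% of all 32851 promoters of this length, CAGCTG in 16.3%. The words can share an end base, which no matches in the sequences shown do. Of the 10 genes 6 had a promoter sequence to search (*Itga4*, *Itgav*, *Itgb1*, *Itga2b*, *Itgb7* and *Itgb5*, that of *Itgav* around a start 2094 bases inside the gene), of which 4 held GAGGAA and 3 held CAGCTG. A word bound by GATA factors, AGATAA, was found in 11.2% of all promoters and in 0 of the 6. Other forms of GATA site were not searched, so whether these promoters lack GATA sites was not tested. The Runx words TGTGGT (16.8%) and TGCGGT (6.45%) were in 1 and 0 of them, and the E-box CAGGTG (20.2%) in 1.

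*Itga6*, the α chain of laminin receptors, was higher in fetal than in adult ETP and rose from adult ETP to adult DN3. The probe set 1422445_at was at 0.29, 0.05 and 0.43 log2 in fetal ETP, 0.42, -0.25 and -0.05 log2 in fetal DN2 and 0.95, 0.57 and 0.88 log2 in fetal DN3. In adult cells it was at -0.83, -0.88 and -0.77 log2 in ETP, -0.89, -0.73 and -0.26 log2 in DN2 and -0.09, 0.11 and 0.13 log2 in DN3. At each stage all fetal arrays lay above all adult arrays, though barely so at DN2. Fetal ETP exceeded adult ETP by 1.08 ± 0.18 log2 (2.12-fold, adjusted p = 0.00192, limma). Adult DN3 exceeded adult ETP by 0.88 ± 0.18 log2 (1.83-fold, adjusted p = 0.00561), which was 0.84 log2 and so under 1.8-fold without adult DN3 replicate 2 (adjusted p = 0.0263) or 3 (0.0231). Fetal DN3 exceeded fetal ETP by 0.54 ± 0.18 log2, without a call (adjusted p = 0.122). The fetal excess just passed 1.8-fold and was called at DN2 without adult DN2 replicate 3 (0.85 log2, adjusted p = 0.0208) and at DN3 without fetal DN3 replicate 2 (0.86 log2, 0.0453), and fetal DN3 over DN2 was called without fetal DN2 replicate 1 (0.95 log2, 0.00915) or fetal DN3 replicate 2 (0.87 log2, 0.045).

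The second probe set of *Itga6*, 1422444_at, ran the same way with a wider spread. It was at 0.29, -0.18 and 1.42 log2 in fetal ETP and -1.63, -1.23 and -1.64 log2 in adult ETP, a difference of 2.01 ± 0.60 log2 just short of the call (adjusted p = 0.0504). The blocked fit gave an adjusted p of 0.0324, and without adult DN2 replicate 1 or 3, adult DN3 replicate 1 or fetal DN2 replicate 2 it was 0.0201 to 0.0489. At DN3 its fetal arrays were at 1.15, 1.13 and 2.04 log2 and its adult arrays at -0.72, 0.60 and 0.18 log2 (1.42 ± 0.60 log2, adjusted p = 0.4). In the F test over the 6 groups this probe set was called too (adjusted p = 0.019).

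Of the 2 β partners of α6, *Itgb4* had its high values at DN3. It was within -0.17 to 0.01 log2 in ETP and DN2 arrays of both ages, and at 2.80, 2.57 and 0.96 log2 in fetal DN3 and 2.75, 3.42 and 0.07 log2 in adult DN3. The low adult array was again replicate 3. Adult DN3 exceeded adult ETP by 2.18 ± 0.65 log2 (adjusted p = 0.0433, limma), a call that was lost on leaving out any 1 of 15 arrays (adjusted p = 0.0526 to 0.187). Without adult DN3 replicate 3 it was 3.18 log2 (9.07-fold, adjusted p = 0.000168) and without replicate 2 it was 1.51 log2. The fetal difference of 2.11 ± 0.65 log2 was not called with all arrays (adjusted p = 0.0861), but leaving out the low adult array gave 0.00228, and leaving out replicate 2 of adult DN3 or 3 of fetal DN3 gave 0.046 and 0.0359. The excess of adult DN3 over DN2 was called only without adult DN3 replicate 3 (3.13 log2, adjusted p = 0.000648).

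*Itgb1*, the common β chain of α4, α6 and αv, was called in no comparison by any of its 6 probe sets, although the ranges of 3 of them were over 2 log2. The most variable, 1452545_a_at, was at -0.05, 0.05 and 1.53 log2 in fetal ETP, -0.65, -0.31 and 0.27 log2 in fetal DN2 and 0.48, -0.33 and 0.66 log2 in fetal DN3. Its adult arrays were at -0.94, -0.15 and -3.01 log2 in ETP, 0.06, -1.50 and 1.88 log2 in DN2 and -0.10, 0.46 and 0.52 log2 in DN3. The spread thus lay mainly among adult ETP and adult DN2 arrays. Fetal ETP exceeded adult ETP by 1.88 ± 0.81 log2 (adjusted p = 0.141), and the probe sets 1426918_at, 1427771_x_at, 1426919_at and 1426920_x_at gave 1.52 ± 0.60, 1.00 ± 0.48, 0.54 ± 0.17 and 0.31 ± 0.11 log2 (adjusted p = 0.115, 0.154, 0.0569 and 0.0896). Of these 1426918_at was called without adult DN2 replicate 3 (adjusted p = 0.0494). The sixth, 1438119_at, ranged over 0.12 log2.

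*Itgav*, the αv chain of vitronectin receptors, fell over the adult stages and was higher in fetal than in adult DN2 and DN3. The probe set 1452784_at was at 0.56, 0.10 and 0.84 log2 in fetal ETP, 0.57, -0.03 and 0.03 log2 in fetal DN2 and -0.08, -0.06 and 0.28 log2 in fetal DN3, the stages overlapping. The adult arrays were at 0.04, 0.64 and 0.42 log2 in ETP, -1.10, -1.26 and -0.55 log2 in DN2 and -1.06, -2.06 and -1.66 log2 in DN3. All adult DN2 and DN3 arrays were below every fetal array, and ETP of both ages overlapped.

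In the adult *Itgav* fell by 1.96 ± 0.28 log2 from ETP to DN3 (3.90-fold, adjusted p = 0.000379, limma) and by 1.34 ± 0.28 log2 from ETP to DN2 (adjusted p = 0.0103), while fetal DN3 differed from fetal ETP by -0.45 ± 0.28 log2 (adjusted p = 0.375). Fetal DN3 exceeded adult DN3 by 1.64 ± 0.28 log2 (3.13-fold, adjusted p = 0.00413) and fetal DN2 exceeded adult DN2 by 1.16 ± 0.28 log2 (2.23-fold, adjusted p = 0.0364). The DN2 call was lost without any 1 of 8 arrays (any fetal DN2 array, fetal ETP replicate 1, fetal DN3 replicate 1 or 2, adult DN2 replicate 1 or 2, adjusted p = 0.0526 to 0.123). The growth of the fetal excess between ETP and DN3 was 1.51 ± 0.40 log2 (adjusted p = 0.0692), with 0.0474 without adult ETP replicate 1 and 0.025 without adult DN3 replicate 1. The other 2 *Itgav* probe sets ranged over 0.18 and 0.31 log2 and were called nowhere. Averaged over all 3, the fall from adult ETP was -0.65 log2 to adult DN3 and -0.42 log2 to adult DN2. The fetal excess so averaged was 0.58 log2 at DN3 and 0.42 log2 at DN2, all of these being under 1.8-fold. When only the arrays compared were fitted, the fetal excess was called neither at DN3 (adjusted p = 0.0634, limma) nor at DN2 (0.203). Nor was the fall from adult ETP to DN2 (0.096), while that to DN3 kept its call.

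*Itgb5*, a β partner of αv, gave a signal on 2 of its 4 probe sets, both with names that mark possible cross-hybridization. The probe set 1456133_x_at was at -0.92, -0.94 and -0.33 log2 in fetal ETP, 0.07, -0.37 and -0.07 log2 in fetal DN2 and 1.32, 0.40 and 1.91 log2 in fetal DN3. In the adult it was at -0.12, 0.68 and 0.73 log2 in ETP, 0.36, -0.22 and 0.21 log2 in DN2 and 0.49, -0.14 and -0.55 log2 in DN3. Fetal ETP arrays were below all adult ETP arrays, and at DN3 the ages overlapped by 1 array of each. It rose by 1.94 ± 0.37 log2 from fetal ETP to fetal DN3 (3.85-fold, adjusted p = 0.00509, limma, but 0.0633 when only these arrays were fitted).

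Between ETP and DN3 the fetal minus adult difference of 1456133_x_at changed by 2.44 ± 0.53 log2 (adjusted p = 0.0262), being -1.16 ± 0.37 log2 at ETP (adjusted p = 0.0649) and 1.28 ± 0.37 log2 at DN3 (0.109). The ETP difference was called without adult ETP replicate 1 (-1.44 log2, 0.0342) or fetal DN3 replicate 2 (0.0351) or 3 (0.0459), and without fetal DN3 replicate 2 so were the DN3 difference (1.68 log2, 0.0215) and the rise from fetal DN2 to DN3 (1.74 log2, 0.0207). The change was not called without any 1 of 8 arrays (replicates 1 and 2 of fetal ETP, 1 and 3 of fetal DN3, 2 and 3 of adult ETP and of adult DN3, 2.09 to 2.40 log2, adjusted p = 0.0579 to 0.0742). The second such probe set, 1456195_x_at, was raised in adult ETP only, at 0.07, 0.73 and 3.12 log2, and was not called, except without adult ETP replicate 1, when fetal ETP differed from adult ETP by -1.72 log2 (adjusted p = 0.0289). The *Itgb5* probe sets whose names mark no cross-hybridization, 1417533_a_at and 1417534_at, ranged over 0.72 and 0.09 log2 and were called nowhere.

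*Itgb2*, the β chain of leukocyte integrins, was highest in ETP at both ages. Its fetal arrays were at 0.62, 0.75 and 1.11 log2 in ETP, -0.65, -0.45 and -0.51 log2 in DN2 and -0.11, 0.09 and 0.46 log2 in DN3, without overlap between stages. The adult arrays were at 0.93, 0.63 and 0.72 log2 in ETP, -1.50, -0.42 and -0.24 log2 in DN2 and -1.36, 0.09 and -0.09 log2 in DN3, where DN2 and DN3 overlapped. In adult cells it fell by 1.48 ± 0.36 log2 from ETP to DN2 (2.79-fold, adjusted p = 0.0239, limma), a call lost without adult ETP replicate 1 or 3 or adult DN2 replicate 1 (adjusted p = 0.0604 to 0.0844, and a difference of -1.09 log2 without adult DN2 replicate 1).

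Its fall of 1.21 ± 0.36 log2 from adult ETP to adult DN3 (adjusted p = 0.0427) was lost without any fetal array, any adult ETP array or adult DN3 replicate 1 (adjusted p = 0.0502 to 0.153), and was -0.76 log2 without that last array. The fetal difference of DN2 from ETP was as large, -1.36 ± 0.36 log2, and was not called (adjusted p = 0.149, but 0.0348 without adult DN3 replicate 1). Fetal and adult cells differed by at most 0.60 ± 0.36 log2 at any stage, with none called.

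Of *Itgal*, *Itgam* and *Itgax*, whose products pair with β2, *Itgax*, the CD11c chain of dendritic cells, was called. *Itgal*, the αL chain of LFA-1, ranged over only 0.31 log2, and *Itgam*, whose product was a target of the depletion, was also flat. *Itgax* was at 3.61, 3.46 and 2.85 log2 in fetal ETP and 1.64, 2.37 and 3.06 log2 in adult ETP. At DN3 it was within -0.09 to -0.03 log2 at both ages, differing from ETP by -3.36 ± 0.34 log2 in the fetus (adjusted p = 2.31e-05, limma) and by -2.43 ± 0.34 log2 in the adult (adjusted p = 0.000295). Myeloid markers differed between the ages at ETP. Dendritic cell and class II markers (7 of 8 measured, *Itgax* among them) averaged 0.48 to 0.54 log2 in fetal ETP and 2.89 to 3.72 log2 in adult ETP. Called lower in fetal ETP were 3 of them (*H2-Aa*, *H2-Eb1*, *Cd74*). *Itgax* itself went the other way, fetal ETP exceeding adult ETP by 0.95 ± 0.34 log2 without a call (adjusted p = 0.0894, limma). Granulocyte and macrophage markers (12 of 13 measured, *Itgam* among them) averaged 1.50 to 1.65 log2 in fetal ETP and 3.04 to 3.91 log2 in adult ETP. Of these 5 were called lower (*Elane*, *Ctsg*, *Lyz2*, *Csf1r*, *Mpeg1*). Their part in the *Itgb2* and *Itgax* values was not tested.

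Counted over all 23 probe sets, the fetal minus adult calls of limma were all for higher fetal values. Fetal ETP was higher for 3 probe sets (*Itgae*, *Itga2b*, *Itga6*) and lower for 0, where 5.04% and 3.45% of all probe sets were called. Fetal DN2 was higher for 1 (*Itgav*) against a background of 1.87%, and fetal DN3 for 2 (*Itgae*, *Itgav*) against 1.60%, with none lower at either stage (backgrounds 1.57% and 1.16%). At an unadjusted p under 0.05 and the same fold, 6, 3 and 5 probe sets were higher at ETP, DN2 and DN3 and 1, 0 and 0 lower. At ETP all fetal arrays lay above all adult arrays for 16 of the 23, but so they did for 51.7% of all probe sets. At DN3 this held for 6 of the 23 and for 8.92% of all, and at DN2 for 3 of the 23 and for 8.97%. The median difference of the 23 was 0.302 log2 at ETP, 0.0609 log2 at DN2 and 0.0742 log2 at DN3, and that of all probe sets 0.0697, 0.0346 and 0.0174 log2.

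**Figure D4:**
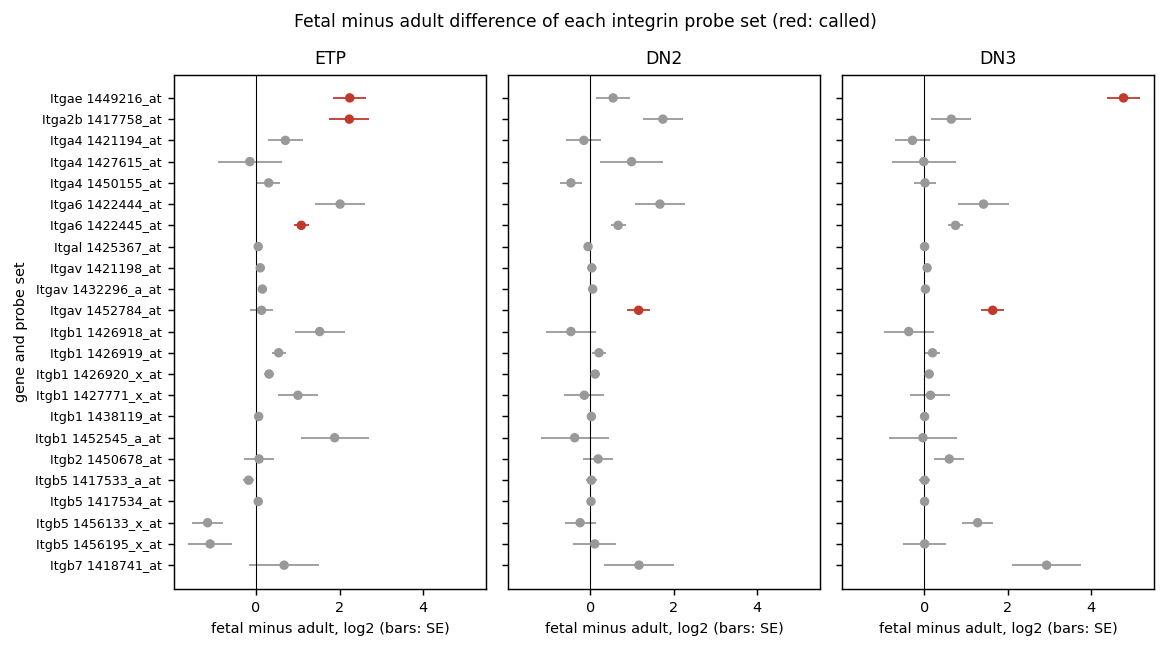
Fetal minus adult difference (log2, error bars ± SE from limma, n = 3 arrays per group) of each of the 23 integrin probe sets at ETP, DN2 and DN3, red where called. Called differences all lie on the side of higher fetal values, from 1.08 log2 for *Itga6* at ETP to 4.77 log2 for *Itgae* at DN3.

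Along the stages the calls were of both signs. From fetal ETP to fetal DN3 2 rose (*Itgae*, *Itgb5*) and 2 fell (*Itga2b*, *Itga4*), with 2.69% and 2.76% of all probe sets. From adult ETP to adult DN3 2 rose (*Itga6*, *Itgae*) and 3 fell (*Itgav*, *Itgb2*, *Itgb7*), with 5.56% and 5.20%. Of these genes *Itgae* alone was called at both ages. *Itgb7* was also lower in fetal DN3 than in fetal ETP (-2.93 log2), just short of the call (adjusted p = 0.0572, limma). Between fetal ETP and DN2 0 rose and 1 fell (backgrounds 0.415% and 0.557%), and between fetal DN2 and DN3 1 rose and 1 fell (1.63% and 0.840%). Between adult ETP and DN2 0 rose and 2 fell (2.96% and 3.11%), and between adult DN2 and DN3 1 rose and 0 fell (0.636% and 0.292%). Where 0 were called, an unadjusted p under 0.05 with the same fold was met by 0 rising at either step from ETP to DN2 and by 3 falling from adult DN2 to DN3. The difference between the fetal minus adult values at DN3 and at ETP was called for 2 probe sets, of *Itgae* and *Itgb5*, both higher, with 0 lower (1.39% and 1.10%, and 2 lower at the unadjusted p). Comparisons within an age share arrays with those between ages.

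The rest of the integrin family was mostly flat. Of 16 further chains 11 were measured, of which 7 (*Itga2*, *Itga5*, *Itga7*, *Itga8*, *Itgam*, *Itgb3* and *Itgb6*) ranged over 0.10 to 0.19 log2. Called over the 6 groups were 3, where 19.7% of the 12393 genes were called with 1 probe set each, *Itgb4*, *Itgax* and *Itga9*, the α9 chain that binds tenascin. *Itga9* was at 1.03, 1.92 and 2.23 log2 in adult ETP and within -0.38 to -0.23 log2 in adult DN3, a fall of 2.04 ± 0.41 log2 (adjusted p = 0.00425, limma). In fetal cells it averaged 0.59 log2 in ETP and 0.92 log2 in DN3, the arrays overlapping, and its fetal minus adult difference was larger at DN3 than at ETP by 2.38 ± 0.58 log2 (adjusted p = 0.0464), a call lost on leaving out any 1 of 15 arrays (0.0556 to 0.122).

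Of 40 molecules that switch integrins to their binding form, link them to actin or associate with them, 35 were measured and 13 were called over the 6 groups, against the 19.7% of all genes. From fetal ETP to fetal DN3 2 rose and 6 fell, where 3.25% and 3.13% of all genes with 1 probe set each did so. From adult ETP to adult DN3 2 rose and 8 fell, where 6.80% and 6.09% did so. *Fyb*, an adaptor that links the T cell receptor to integrin activation, rose by 1.62 ± 0.22 log2 in the fetus (adjusted p = 0.000277, limma) and 2.44 ± 0.22 log2 in the adult (adjusted p = 6.17e-06). *Cyth1*, a regulator of β2 integrin adhesion, rose in the fetus by 1.75 ± 0.26 log2 (adjusted p = 0.000734). The tetraspanin gene *Cd9* fell by 4.37 ± 0.55 log2 in the fetus (adjusted p = 0.000175) and 3.04 ± 0.55 log2 in the adult (adjusted p = 0.00215), where it was -3.80 log2 without adult DN3 replicate 3. *Vcl*, which encodes the actin linker vinculin, fell by 3.34 ± 0.23 log2 in the fetus (adjusted p = 7.68e-07) and 2.11 ± 0.23 log2 in the adult (adjusted p = 3.87e-05). The tetraspanin gene *Cd81* fell by 2.11 ± 0.47 log2 in the fetus (adjusted p = 0.0141) and 3.74 ± 0.47 log2 in the adult (adjusted p = 0.000137). The adult *Cd81* difference was -4.40 log2 without adult DN3 replicate 3 and -3.14 log2 without replicate 1.

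Between the ages, activators and adaptors were called at ETP for 2 higher and 4 lower in fetal cells, with 6.16% and 4.06% of all genes. At DN2 they were called for 2 and 2, with 2.11% and 1.94%, and at DN3 for 0 and 0 (2 higher at an unadjusted p under 0.05 and the same fold), with 1.95% and 1.33%. *Rap1b*, a small GTPase that activates integrins, was higher in fetal ETP by 2.31 ± 0.47 log2 (adjusted p = 0.00688, limma), or 2.96 log2 without adult ETP replicate 1 and 1.70 log2 without replicate 3. Lower in fetal ETP were *Cd47*, which encodes an integrin-associated protein (-3.60 ± 0.30 log2, adjusted p = 6.72e-06), and *Cyth1* (-2.80 ± 0.26 log2, adjusted p = 1.81e-05). Of 30 ligands 28 were measured and 3 called over the 6 groups (*Cdh1*, *Icam1* and *Icam2*), against the 19.7% of all genes. Besides *Cdh1*, *Icam1*, a ligand of LFA-1, was lower in fetal than in adult ETP (-1.01 ± 0.27 log2, adjusted p = 0.0273) and fell between ETP and DN3 by 1.08 ± 0.27 log2 in the fetus (adjusted p = 0.0256) and 1.97 ± 0.27 log2 in the adult (adjusted p = 0.000227). Its calls at ETP and in the fetus were lost on leaving out any 1 of 4 arrays (adult ETP replicate 1 or any fetal ETP array, adjusted p = 0.0594 to 0.0924) and any 1 of 5 (any fetal ETP array, fetal DN3 replicate 1 or 3, 0.0584 to 0.122). *Vcam1*, the ligand of α4β1, was not called over the 6 groups. It was lower in fetal than in adult ETP (-1.36 ± 0.40 log2, adjusted p = 0.0476, limma), its adult ETP arrays being at 2.00, 2.22 and -0.05 log2. That call was lost on leaving out any 1 of 16 arrays (adjusted p = 0.0561 to 0.18) and the difference was -2.08 log2 without adult ETP replicate 3.

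Correlations of known partners lay among those of the other pairs. Over the 18 arrays the 7 known α and β pairs among the 10 genes had correlations from 0.47 (*Itga6* with *Itgb1*) to -0.30 (*Itga4* with *Itgb1*), with 0.35 for *Itga4* with *Itgb7*, 0.26 for *Itgav* with *Itgb5* and 0.03 for *Itgal* with *Itgb2*. These rest on the most variable probe set of each gene whose name marks no cross-hybridization, which for *Itga4* (1427615_at) and *Itgb5* (1417533_a_at) is not the one that changed over the 6 groups. With the probe sets that changed, *Itga4* correlated at 0.52 with *Itgb7* and 0.07 with *Itgb1*, and *Itgb5* at 0.13 with *Itgav*. The highest of all 45 pairs was *Itgav* with *Itgb7* (r = 0.78), which are not known to form a receptor. Arrays of a group share their population, so these values are descriptions over 18 arrays with 6 group levels. The gene nearest to each of the 8 chains that changed, by root mean square distance over the 18 arrays, was *Apoe* for *Itgae* (0.892 log2), *Pdia5* for *Itga2b* (0.615 log2), *Plod2* for *Itga6* (0.666 log2), *Fdx1* for *Itgav* (0.489 log2), *Pcyox1* for *Itgb2* (0.332 log2) and *Rhoq* for *Itgb7* (0.700 log2), and, from the probe sets that changed, *Pi4k2b* for *Itga4* (0.449 log2) and *Lrrc1* for *Itgb5* (0.445 log2). *Apoe* averaged 5.16 log2 in fetal DN3 and -0.42 log2 in adult DN3.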

How the data were processed

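Expression was read on Affymetrix mouse genome arrays, and all columns of the deposited table were assigned to a sample by name. The deposited log2 values come from GCRMA (submitters' processing notes, version not given in the sources used here) after amplification in 2 cycles. The authors subtracted each probe set's median over the arrays (largest remaining median 5.0e-07), so that the files hold differences and no levels. Centred values also cannot show which probe sets were near background, and the planned filter on low values was replaced by a range of at least 1 log2. Array medians were -0.089 to 0.050 log2. Precision is limited by the number of arrays.

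Probe sets were named from the platform annotation: 20380 had 1 gene symbol, 691 several and 1555 none. One mean per group was fitted over the 18 arrays with limma 3.58.1 (R 4.3.3, lmFit, eBayes without trend, prior degrees of freedom 0.971, median moderated SD 0.229 log2), with Benjamini-Hochberg adjustment over 22626 probe sets. Where a gene outside the 10 chains had several probe sets, the one with the largest SD was taken leaving aside, where possible, names that mark cross-hybridization. The members and lists were chosen with earlier results of these data known. The rule named all 10 chains, per list and direction the 3 genes with the largest called differences, of which part is given, and the nearest gene of each chain that changed (by its most variable probe set, or the one that changed). *Itgb4*, *Itga9*, *Itgax*, *Vcl* and the values of *Cdh1* by array are given beside these for the chains they go with, after their values were seen. Counts over lists of genes, 1 probe set each, stand beside the share called over all genes chosen that way. The script was tested on simulated data. Means, distances and figures were made with Python 3.11.15, numpy 2.4.6, pandas 2.3.3 and matplotlib 3.10.9.

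Replicate numbers 1 to 3 come from the labels. The arrays' departures from their group's mean correlated over 0.1 between all same-numbered arrays of the fetal groups (0.334 to 0.600), of fetal groups with adult DN2 and of adult DN2 with adult DN3 (0.115 to 0.416), and not between the other groups, so that the numbers pair only the groups named. Alternatives were the number as a block, each array left out, array weights, robust eBayes, each array centred on its median, only the arrays of the groups compared, other fold and range limits, the mean over the probe sets of a gene, and a test without limma's moderation. Over the 6 groups that last test was a one-way analysis of variance, after the methods of the study. For a single difference it was an unmoderated t-test on only the arrays of the groups compared, which the study did not describe. Leaving out probe sets marked for cross-hybridization was added after seeing the data.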

Additional observations from a re-analysis of the deposited data

Results flagged for a closer look

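The fetal minus adult difference changed between ETP and DN3 for 2 integrin probe sets (limma interaction term). For *Itgae* it was larger at DN3 by 2.53 log2 (adjusted p = 0.0321), fetal cells being higher at both stages. For the *Itgb5* probe set 1456133_x_at it was larger by 2.44 log2 (adjusted p = 0.0262), fetal cells being the lower at ETP and the higher at DN3, without either difference being called.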

How the results depend on the processing

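No called integrin difference changed sign. Of 23 single differences called, 4 kept their call under every alternative that was run (28 or 29 for each), and of 82 not called 16 were called under at least 1. With the replicate number as a block the call of *Itga4* between fetal ETP and fetal DN3 was lost (adjusted p = 0.0562) and *Itga6* 1422444_at was called at ETP (0.0324), with *Itga4* also lost from the chains changing over the 6 groups (0.0702). The block changed no other call. It fits the same shift for a replicate number in all groups, including those that the numbers do not pair. What pairing of the paired groups alone would do to the calls was not tested.

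Leaving out 1 array at a time, the probe sets called numbered 6 to 9 over the 6 groups (9 with all arrays). They numbered 3 to 5 for fetal minus adult at ETP (3 with all arrays), 0 to 2 at DN2 (1) and 2 to 4 at DN3 (2). Within the fetus they numbered 0 to 2 for DN2 minus ETP (1), 1 to 3 for DN3 minus DN2 (2) and 3 to 5 for DN3 minus ETP (4), and within the adult 1 to 3 (2), 0 to 3 (1) and 3 to 5 (5). For the fetal minus adult difference at DN3 less that at ETP they numbered 0 to 3 (2).

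With array weights the counts were 7 for fetal minus adult at ETP and 3 at DN2, 2 for fetal DN2 minus ETP and 4 for fetal DN3 minus DN2, and 5 and 2 for the same adult steps. With only the arrays of the groups compared they were 0 at DN2 and 1 at DN3 for fetal minus adult, 0 for fetal DN2 minus ETP and for both adult steps, 2 for adult DN3 minus ETP and 1 for the DN3 less ETP difference. Among probe sets ranging over at least 1 log2, fewer being tested, they were 5, 2 and 4 for fetal minus adult at ETP, DN2 and DN3, and 2 for adult DN3 minus DN2. The unmoderated t-test on the arrays compared, without adjustment, gave 5 at ETP and 2 at DN2 for fetal minus adult. It gave 3 and 5 for the fetal steps and 4 for the DN3 less ETP difference. With adjustment it gave 1, 0 and 1 for fetal minus adult at ETP, DN2 and DN3, 0 for each of the fetal and adult steps, 1 for adult DN3 minus ETP and 1 for the DN3 less ETP difference. Without probe sets marked for cross-hybridization, chosen after seeing the data, 1 was left for the DN3 less ETP difference. The causes of these moves were not tested. Precision is limited by 3 arrays per group, by values without levels and by single groups of wide spread, as for *Itgb7* at -6.44 to -1.77 log2 in adult DN3.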
